A study of Macaca radiata with 6 samples.

Results

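The genes described here encode enzymes of glutathione metabolism and peroxide removal, with the metal-binding metallothioneins, in corpora lutea from bonnet monkeys (Macaca radiata). Members were all probe sets whose platform annotation gave exactly 1 gene symbol belonging to the glutathione transferases (GST, MGST), glutathione peroxidases (GPX), peroxiredoxins (PRDX), superoxide dismutases (SOD), thioredoxin reductases (TXNRD), metallothioneins (MT), or equal to TXN, TXN2, CAT, GCLC, GCLM, GSR, GSS, HMOX1, HMOX2 or NQO1. This gave 63 of 52865 probe sets, which stand for 33 of 14133 genes named on the array. None carried a thioredoxin or thioredoxin reductase symbol, nor GPX1, GPX3, PRDX1, PRDX5, SOD3, GSR, GSS, HMOX1 or NQO1, so those genes are not analysed here and the members hold the glutathione and peroxiredoxin enzymes without the thioredoxins themselves. Female monkeys on day 10 of the luteal phase received 3 intramuscular injections of prostaglandin F2-alpha (PGF2alpha), an inducer of luteal regression, at 59 µg/kg body weight, or phosphate-buffered saline as vehicle. The gland was taken 24 h later and total RNA was hybridised to Affymetrix Rhesus arrays, 3 per group (PGF2alpha replicates 1 to 3, vehicle replicates 4 to 6). The labels give 3 animals per group but tie no array to an animal, and the spread behind each p-value is that between these 6 samples, which may be partly technical.

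Glutathione is a thiol tripeptide made by glutamate-cysteine ligase and glutathione synthase. Glutathione transferases couple it to electrophiles, glutathione peroxidases use it to reduce hydroperoxides, and most peroxiredoxins reduce peroxides with electrons from thioredoxin. Superoxide dismutases turn superoxide into hydrogen peroxide, which catalase breaks down. Steroid-making cells meet reactive oxygen species from the mitochondrial and microsomal cytochrome P450 enzymes, and some alpha-class transferases also isomerise steroid intermediates.

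The array medians lay between 115 and 134 signal units, and steroidogenic markers were measured in every array, with STAR, the mitochondrial cholesterol carrier, at 63395 ± 7411 (SD, n = 3) in vehicle. Signal at the 3-prime end over that at the 5-prime end ran from 1.49 to 2.25 for beta-actin and from 1.39 to 1.73 for GAPDH, controls for RNA quality, with overlapping groups. Recorded hybridisation times placed PGF2alpha replicates 1 and 3 and vehicle replicates 5 and 6 in run 1 and PGF2alpha replicate 2 and vehicle replicate 4 in run 2. The time recorded for vehicle replicate 4, the only vehicle array of run 2, lay after its own scan, so what these times mark is unknown, and each run 2 value and each fit blocked on the run rests on this grouping. The recorded scans of run 1 all preceded those of run 2. Many treated values of PGF2alpha replicate 3 lay nearest to vehicle, as given below. The probes are those of another macaque species, so a mismatching probe set can read low in both groups.

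After PGF2alpha, 4 genes fell and 1 rose among the 33, each read at its tested probe set of highest mean. The transferases GSTT1, GSTA3 and GSTP1 and the peroxiredoxin PRDX6 fell by 1.68, 1.53, 0.84 and 1.42 on the log2 scale, and GSTA1 rose by 1.21. Of 60 member probe sets that passed the filter on low values, 6 fell (10.0%) and 1 rose (1.67%), against 1.99% lower and 3.02% higher among all 26944 tested probe sets (limma, Benjamini-Hochberg adjusted p below 0.05). By gene the shares were 12.1% lower and 3.03% higher, against 2.32% and 3.81% among all 9980 genes tested. Of the 6 probe sets that fell, PRDX6 passed the filter through its vehicle arrays alone, a choice that favoured a fall. The groups did not overlap in 20 of the 60 probe sets (33.3%, against 26.8% of all tested), 17 of them lower after PGF2alpha and 3 higher. Among all tested probe sets without overlap, 3702 were lower and 3509 higher. A negative difference was estimated for 48 of the 60 (80%, against 53.1% of all tested). Several of the 60 read the same gene, and by gene it was 23 of 33 (69.7%, against 51.9% of all genes tested). The median log2 fold change of the 60 was -0.277 (-0.230 within run 1, -0.354 within run 2), against -0.0281 over all tested probe sets. By gene it was -0.242, against -0.0175 over all genes tested. PRDX6 and a PRDX2 probe set that also passed the filter through vehicle arrays alone count among the 48 and the 17. In bulk tissue, fewer cells of a type and less RNA per cell cannot be told apart. The 6 lower calls numbered 0 without PGF2alpha replicate 1 or 2 or vehicle replicate 4, 5 or 6 and 8 without PGF2alpha replicate 3. In those limma fits, in that order, unadjusted p-values below 0.05 counted 14, 12, 13, 17, 14 and 21 lower probe sets, against 18 with all arrays. Counted in both directions with all arrays, 21 of the 60 had an unadjusted limma p below 0.05, as did 5664 of the 26944 tested.

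**Figure D1:**
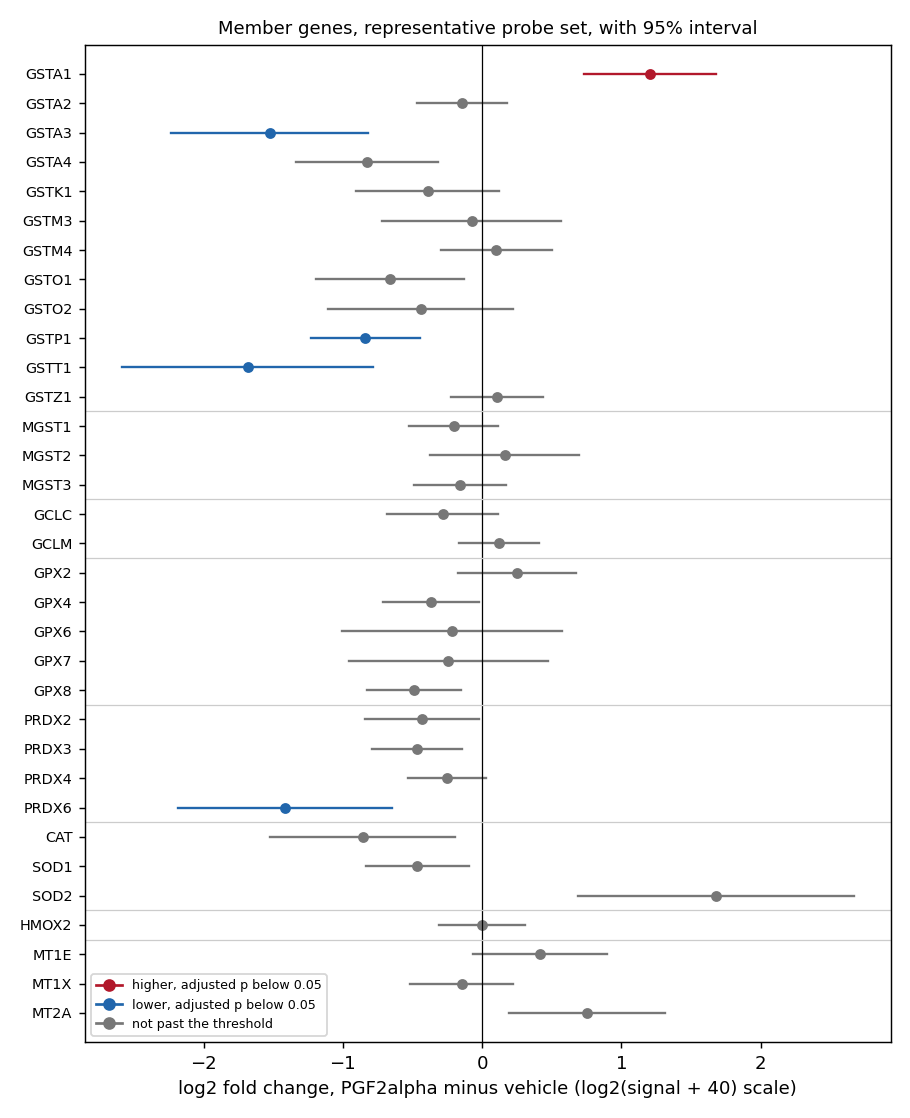
Log2 fold change (PGF2alpha minus vehicle, on the log2(signal + 40) scale) of the 33 member genes with its unadjusted 95% interval, ordered by enzyme family; red and blue mark genes past the adjusted threshold. GSTA3, GSTP1, GSTT1 and PRDX6 lie below 0 and GSTA1 above it, and SOD2 has the widest interval above 0.

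Among the alpha-class transferases, both probe sets of GSTA3 and 1 of 2 of GSTA2 fell, 1 of 2 of GSTA1 rose, and GSTA4 did not pass. GSTA3 encodes the transferase with the isomerase activity on steroid intermediates. Its signal was 26844, 30066 and 27386 in vehicle replicates 4, 5 and 6 and 6135, 8536 and 17535 in PGF2alpha replicates 1, 2 and 3. Every treated array lay below every vehicle array, and replicate 3 was the nearest to them. The group means were 28098 ± 1725 and 10736 ± 6009.9 (SD, n = 3). GSTA3 fell by 1.53 on the log2 scale (SE 0.314, 95% interval -2.23 to -0.82, adjusted p = 0.0290). A second probe set of GSTA3 fell by 1.56 (adjusted p = 0.0356). The 2 GSTA3 probe sets carry the same base name and are not independent readings. The second lost its call with robust variance estimation (adjusted p = 0.0541). The first, whose values are given here, is of a kind that can cross-hybridise with related transcripts. Its difference was -1.46 within run 1 and -1.65 within run 2. Leaving out PGF2alpha replicate 1 or 2 or any one vehicle array raised the adjusted p to between 0.0755 and 0.114, past the threshold, and leaving out PGF2alpha replicate 3 lowered it to 0.000708.

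GSTA1 encodes a close paralogue of GSTA3 that detoxifies electrophiles and lipid hydroperoxides. It read 153, 175 and 161 in the vehicle arrays and 329.8, 530.4 and 446 in the PGF2alpha arrays, so the groups were separate and vehicle values were tight. The rise was 1.21 on the log2 scale (SE 0.211, adjusted p = 0.0170), with 1.03 within run 1 and 1.57 within run 2. Both GSTA1 probe sets are of a kind that can cross-hybridise with related transcripts, and the other one stood at -0.11 (adjusted p = 0.857) with overlapping groups. The difference between these readings was not tested, so the direction for GSTA1 rests on 1 probe set. Its call was lost without PGF2alpha replicate 2 (adjusted p = 0.0819) and without vehicle replicate 4 (adjusted p = 0.0508) or 6 (adjusted p = 0.0594).

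GSTA2, another alpha-class paralogue, was also read unequally by its probe sets. The dimmer one measured 1714, 1424 and 1548 in vehicle and 818, 1125 and 940.4 after PGF2alpha, without overlap, and fell by 0.69 (SE 0.165, adjusted p = 0.0486). The brighter one stood at -0.15 (adjusted p = 0.614) with overlapping groups. The adjusted p of the dimmer reading was above 0.05 without each of the 6 arrays in turn (0.0757 to 0.151) and with arrays scaled to one median (0.101). GSTA4, which conjugates the lipid peroxidation product 4-hydroxynonenal, had non-overlapping groups with means of 3482 ± 769 in vehicle and 1965 ± 570.4 (SD, n = 3) after PGF2alpha, but did not pass (-0.83, adjusted p = 0.0723). A fit that blocked on the run put its adjusted p at 0.0494.

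Among the other transferase classes, GSTT1 and GSTP1 fell. GSTT1, the theta-class enzyme that acts on small halogenated molecules, read 5969.9, 4916 and 4279 in vehicle and 1164, 914 and 3334 in PGF2alpha replicates 1, 2 and 3. The groups did not overlap, and PGF2alpha replicate 3 stood apart from the other treated arrays, close under the lowest vehicle array. The log2 fold change was -1.68 (SE 0.400, adjusted p = 0.0462), -1.20 within run 1 and -2.65 within run 2. Blocking on the run ended the call (adjusted p = 0.0521), as did robust variance estimation (adjusted p = 0.0680) and leaving out PGF2alpha replicate 1 or 2 or any one vehicle array (adjusted p from 0.106 to 0.147).

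GSTP1, the pi-class enzyme found in most tissues, measured 18162, 15733 and 17202 in vehicle. It measured 8531, 8058 and 12436 after PGF2alpha, below every vehicle array. The fall was 0.84 on the log2 scale (SE 0.173, adjusted p = 0.0293), and the difference was -0.67 within run 1 and -1.17 within run 2. It was lost without PGF2alpha replicates 1 and 2 (adjusted p = 0.106 and 0.109) and without vehicle replicates 4, 5 and 6 (adjusted p = 0.0912, 0.0595 and 0.103).

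**Figure D2:**
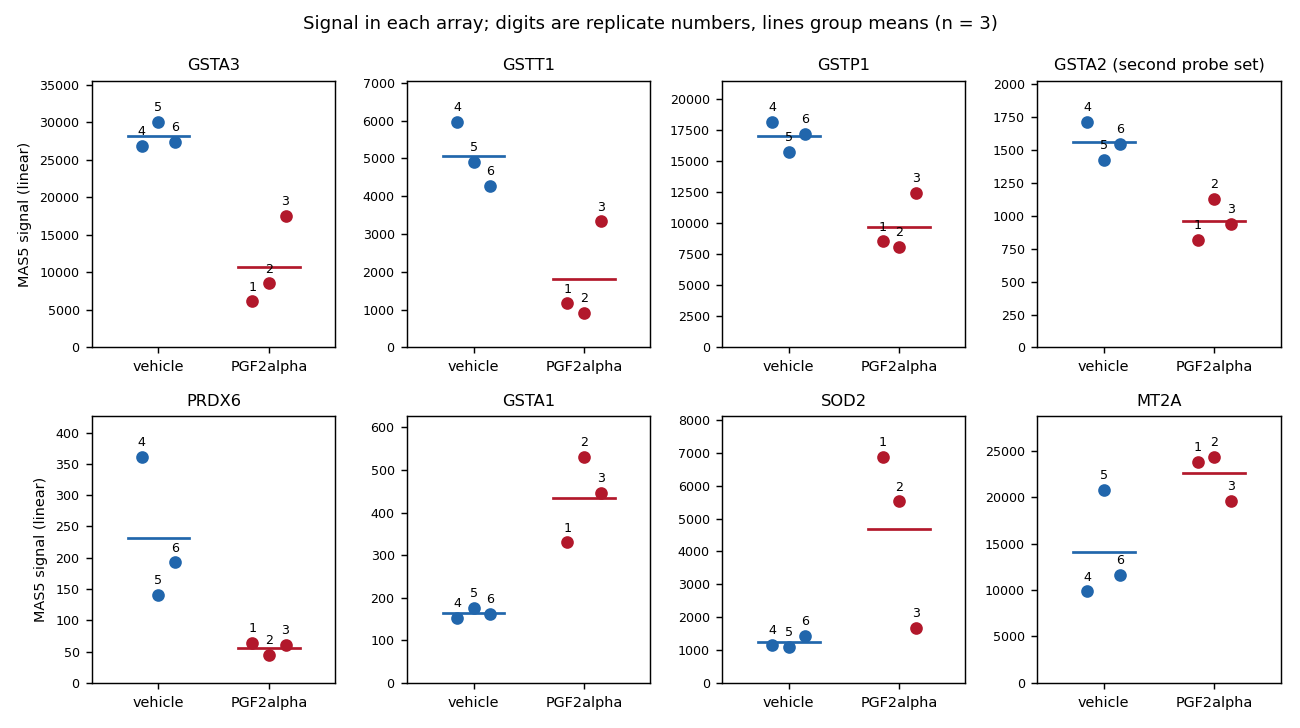
MAS5 signal (linear, from 0) in each array for the probe sets past the threshold (the second GSTA3 probe set left out) and for SOD2 and MT2A, with vehicle in blue, PGF2alpha in red, replicate numbers beside the points and lines at group means (n = 3). PGF2alpha replicate 3 lies nearest to vehicle in GSTA3, GSTT1, GSTP1 and SOD2, and the MT2A groups overlap through vehicle replicate 5.

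GSTO1, an omega-class enzyme that reduces protein thiol adducts, read 6629, 3428 and 4001 in vehicle and 3304, 2563 and 2681 after PGF2alpha. Its groups were adjacent without overlap, and it did not pass (-0.66, 95% interval -1.19 to -0.13, adjusted p = 0.148). The mitochondrial and peroxisomal GSTK1 measured 1672, 959 and 1397 in vehicle and 1224, 823 and 961 after PGF2alpha, with overlap (-0.39, adjusted p = 0.372). GSTM3, of the mu class, gave 10821, 12924 and 14413 in vehicle and 8967, 20281 and 9464 after PGF2alpha. Its highest value was thus PGF2alpha replicate 2 and its 2 lowest were the other treated arrays, and the estimate was -0.08 (95% interval -0.72 to 0.57). Mu-class genes are close copies of each other and their probe sets may share signal. GSTM4 stood at 0.10 and GSTO2 at -0.44. The amino-acid catabolic enzyme GSTZ1 stood at 0.10 at its representative and at -0.43 and -0.13 at its other probe sets, and 0 of these passed (adjusted p from 0.209 to 0.744). In all, 12 transferase genes of the cytosolic and kappa classes gave 3 lower and 1 higher call, with a median log2 fold change of -0.415, beside 2.32% lower and 3.81% higher calls and a median of -0.0175 over all genes tested.

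The microsomal transferases, membrane enzymes of the endoplasmic reticulum and mitochondria, did not pass at any of their 6 probe sets. MGST1 read 8831, 11785 and 9399.9 in vehicle and 8664, 8223 and 8967 after PGF2alpha, so the treated arrays lay within or just below the vehicle range (-0.20, 95% interval -0.52 to 0.11). MGST2, which can make leukotriene C4, stood at 0.16 (adjusted p = 0.759) and MGST3 at -0.16 (adjusted p = 0.580). A further probe set of MGST3 had separate groups, with means of 3285 ± 353 in vehicle and 2418 ± 82.6 (SD, n = 3) after PGF2alpha, and did not pass (-0.43, adjusted p = 0.111).

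Glutathione synthesis was represented by both subunits of glutamate-cysteine ligase. GCLC, the catalytic subunit, read 34044, 30127 and 23623 in vehicle and 19219.9, 26276 and 26661 after PGF2alpha, with overlapping groups. Its estimate was -0.28 (95% interval -0.68 to 0.12, adjusted p = 0.405), and its other 4 probe sets lay between -0.45 and -0.03. GCLM, the regulatory subunit, measured 2638, 2568 and 2512 in vehicle and 2841, 2916 and 2661 after PGF2alpha. All 3 treated arrays stood just above the vehicle arrays, by an estimated 0.12 (95% interval -0.16 to 0.41, adjusted p = 0.638). Neither subunit passed, and the intervals at these brightest probe sets leave out a 2-fold change.

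None of the 5 glutathione peroxidase genes passed, and 4 had a negative estimate, with a median of -0.242 (-0.0697 within run 1 and -0.669 within run 2). GPX4, the selenoenzyme that reduces lipid hydroperoxides in membranes, read 20974, 16758 and 18352 in vehicle and 13387, 12918 and 17437 after PGF2alpha. PGF2alpha replicate 3 lay above vehicle replicate 5, and the groups were otherwise separate. Its estimate was -0.36 (95% interval -0.71 to -0.02, adjusted p = 0.211), and its other probe sets gave -0.43 and -0.29. GPX8, a peroxidase of the endoplasmic reticulum, was lower in every treated array, with means of 8265 ± 274 in vehicle and 5936 ± 1096 (SD, n = 3) after PGF2alpha (-0.49, adjusted p = 0.1). It passed without PGF2alpha replicate 3 (adjusted p = 0.0266). GPX2, GPX6 and GPX7 stood at 0.25, -0.22 and -0.24 with overlapping groups, and a further GPX2 probe set stayed under the filter.

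All 9 peroxiredoxin probe sets had a negative estimate, and 1 passed the threshold. The filter favoured that sign for PRDX6 and for a dim PRDX2 probe set (-0.72, adjusted p = 0.179), both let through by vehicle arrays alone. A dim PRDX3 probe set stood at only -0.00676. PRDX6, a peroxidase with phospholipase activity, read 361, 141 and 192 in vehicle and 64.0, 44.5 and 60.9 after PGF2alpha. The treated values lay below the median of their own arrays, where a fold is poorly measured, and the probe set, its only one, was tested through its vehicle arrays. The log2 fold change was -1.42 (SE 0.341, adjusted p = 0.0483). The call was lost without each of the 6 arrays in turn (adjusted p from 0.0538 to 0.160) and with blocking on the run (adjusted p = 0.0549), quantile normalization (adjusted p = 0.0556), arrays scaled to one median (adjusted p = 0.0563) or a pseudocount of 160 (adjusted p = 0.0537). With that pseudocount the estimate was -0.817.

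PRDX3, the peroxiredoxin of mitochondria, gave 31545, 24561 and 27929 in vehicle and 18699, 18657 and 23399 after PGF2alpha. Each treated array was below each vehicle array, and the difference did not pass (-0.47, 95% interval -0.79 to -0.15, adjusted p = 0.0980). Without PGF2alpha replicate 3 it passed (adjusted p = 0.0451). A second bright PRDX3 probe set was also separate between groups, at -0.30 (adjusted p = 0.249), and the 2 dimmer ones overlapped. PRDX2, a cytosolic enzyme that is abundant in red cells, read 6759, 6234 and 7109 in vehicle and 4578, 4054 and 6506 after PGF2alpha. The overlap came from PGF2alpha replicate 3 alone (-0.43, adjusted p = 0.211, and 0.0376 without that replicate). PRDX4, of the endoplasmic reticulum, had means of 8227 ± 321 in vehicle and 6926 ± 565 (SD, n = 3) after PGF2alpha without overlap (-0.25, adjusted p = 0.291).

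The superoxide dismutases had estimates of opposite sign and did not pass. SOD1, the copper-zinc enzyme of the cytosol, read 24690.1, 18144 and 21649 in vehicle and 16536, 12768 and 17463 after PGF2alpha. The treated arrays all lay below the vehicle arrays (-0.46, 95% interval -0.83 to -0.10, adjusted p = 0.143), by -0.22 within run 1 and -0.95 within run 2. SOD2, the manganese enzyme of mitochondria that inflammatory cytokines induce, read 1147, 1100.4 and 1437 in vehicle. After PGF2alpha it read 6869.8 and 5521 in replicates 1 and 2 and 1671 in replicate 3. All treated arrays were above all vehicle arrays, but replicate 3 was only just so. The estimate was 1.68 (95% interval 0.69 to 2.67, adjusted p = 0.0611), with adjusted p = 0.000681 without PGF2alpha replicate 3. Its other probe set gave -0.13 (adjusted p = 0.750), with means of 783 ± 149 in vehicle and 707 ± 103 (SD, n = 3) after PGF2alpha, so the 2 readings of SOD2 disagree.

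Catalase (CAT), the peroxisomal enzyme that splits hydrogen peroxide, read 631, 539.7 and 279 in vehicle and 242, 179.9 and 295 after PGF2alpha. Vehicle replicate 6 lay among the treated values, and the estimate of -0.86 did not pass (95% interval -1.52 to -0.20, adjusted p = 0.134). It was -0.48 within run 1 and -1.61 within run 2. The other CAT probe set was separate between groups, at -0.34 (adjusted p = 0.460).

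HMOX2, the constitutive heme oxygenase, had an estimate nearest to 0 of all 33 genes, with 1854 ± 119 in vehicle and 1855 ± 104 (SD, n = 3) after PGF2alpha (95% interval -0.31 to 0.31). Its 3 probe sets lay between -0.01 and 0.05. The metallothioneins, small cysteine-rich proteins that bind zinc and copper, did not pass at any of 6 probe sets. MT2A read 9848, 20769 and 11639.5 in vehicle and 23833, 24330.4 and 19637 after PGF2alpha. Vehicle replicate 5 lay among the treated arrays and the other vehicle arrays well below (0.75, 95% interval 0.19 to 1.31, adjusted p = 0.122). Without vehicle replicate 5 it passed (1.07, adjusted p = 0.0208). MT1E stood at 0.42 (adjusted p = 0.307). MT1X gave 1781, 1448 and 1551 in vehicle and 1199, 1565 and 1563 after PGF2alpha, with overlap (-0.15, adjusted p = 0.671). Metallothionein 1 genes are near copies, and the MT1E probe set is of the cross-hybridising kind.

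Treated arrays differed in how far they lay from vehicle. The median deviation of the 60 tested probe sets from the vehicle mean, on the log2 scale, was -0.406 in PGF2alpha replicate 1, -0.273 in replicate 2 and -0.0983 in replicate 3, and it lay between -0.0459 and 0.0455 in the vehicle arrays. Over all tested probe sets the same medians lay between -0.0350 and 0.0274 in the 6 arrays. Over all tested probe sets, PGF2alpha replicate 3 also lay nearest to vehicle, with correlations of 0.942 to 0.955 with the vehicle arrays, against 0.912 to 0.924 for replicates 1 and 2 (Pearson, across probe sets, which are not independent). The groups did not overlap in 13 of the 33 genes (39.4%), against 30.9% of all genes tested. Of these 13, 10 were nearest to vehicle in replicate 3, 3 in replicate 1 and 0 in replicate 2. Of the 3084 such genes among all tested, 54.1% were nearest in replicate 3, 24.6% in replicate 1 and 21.3% in replicate 2. GSTA1 was among the 3 that were nearest in replicate 1.

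**Figure D3:**
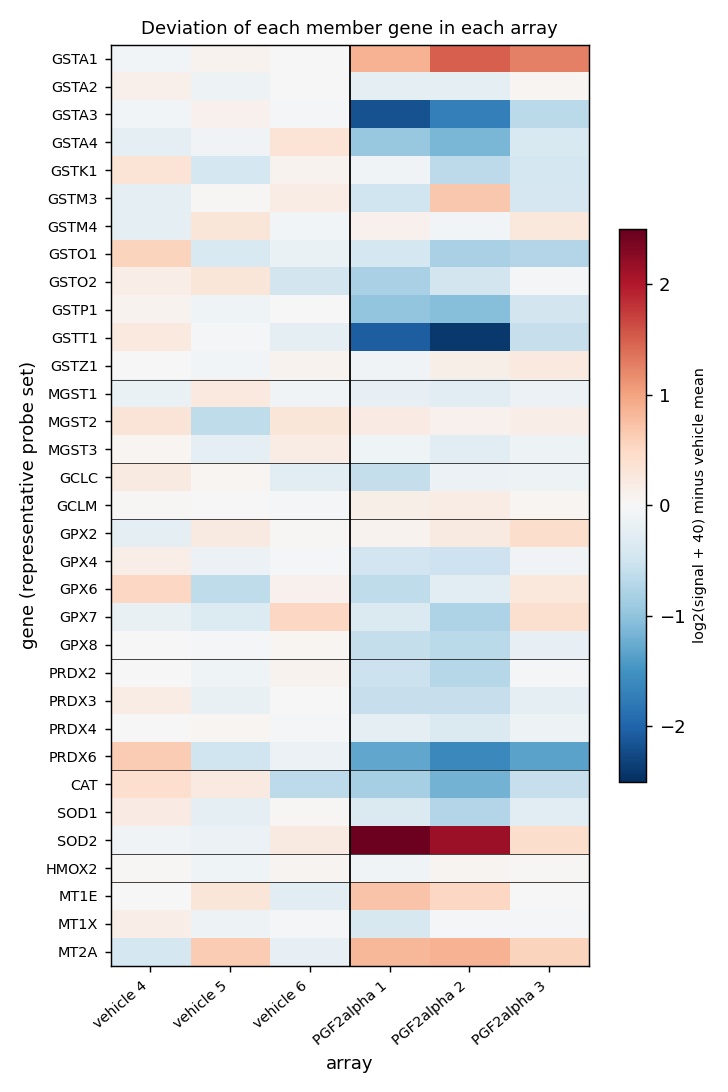
Deviation of each member gene from its vehicle mean (colour, log2(signal + 40) scale) in each of the 6 arrays, with families divided by lines. PGF2alpha replicates 1 and 2 show the deepest blue in GSTA3 and GSTT1 and the deepest red in SOD2, and replicate 3 is paler in these genes.

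Several probe sets were tested for 15 of the genes, and the estimates had the same sign for 10 of them. GPX4 (-0.43 to -0.29), GSTA3 and MGST1 (-0.20 to -0.13) differed least among the genes with negative estimates throughout. The signs were mixed for GSTA1, GSTZ1, HMOX2, MT1X and SOD2, with the widest ranges for SOD2 (1.81 between its probe sets on the log2 scale) and GSTA1 (1.32). A call for either of these genes therefore holds for the probe set and not for the gene as a whole. The other 18 genes had 1 tested probe set.

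**Figure D4:**
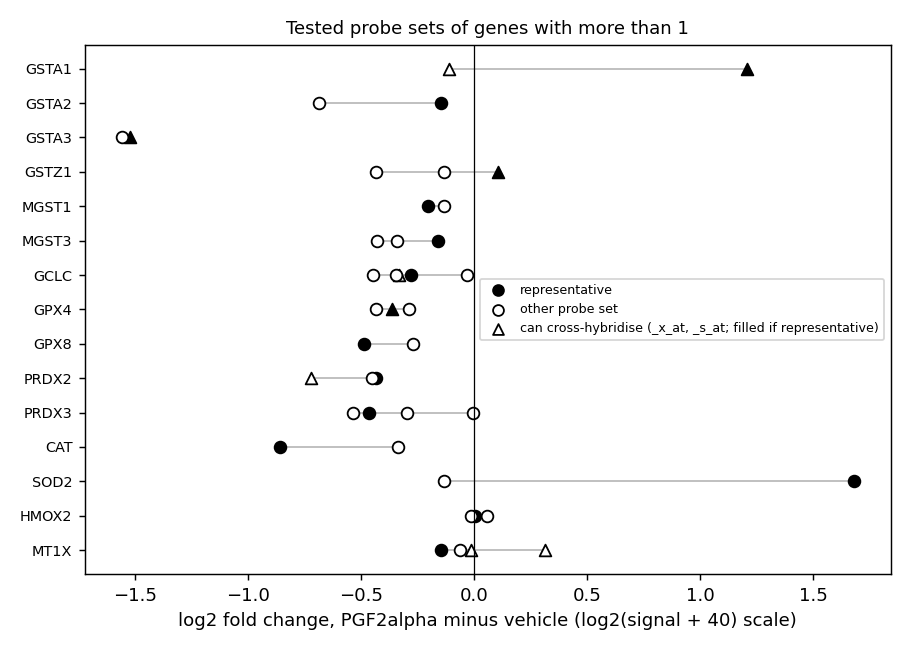
Log2 fold change (PGF2alpha minus vehicle) of each tested probe set of the 15 genes that had several; filled symbols are the representatives and triangles the kinds that can cross-hybridise. The probe sets of SOD2 and GSTA1 are spread over 1.81 and 1.32, and the 5 of GCLC all lie below 0.

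Markers of some cell types in the gland moved with the groups. The counts of calls below stand beside 3.81% higher and 2.32% lower over all genes tested. The summed signal of 7 steroidogenic markers lay between 158558 and 190834 in vehicle and was 77997, 86408 and 142420.0 in PGF2alpha replicates 1, 2 and 3. All 7 had a negative estimate, but HSD17B1 passed the filter through its vehicle arrays alone, which favoured that sign. Of the 7, 1 fell, STAR (-0.67, adjusted p = 0.0497). Its adjusted p ran from 0.0983 to 0.169 on leaving out PGF2alpha replicate 1 or 2 or any one vehicle array. The STAR call was also lost without the filter on low values (adjusted p = 0.193) and without a variance trend (adjusted p = 0.12). Blocking on the run (adjusted p = 0.0572) and scaling to one median (adjusted p = 0.0590) ended it too. So did a pseudocount of 10 (adjusted p = 0.0509) and leaving out cross-hybridising probe sets (adjusted p = 0.0507). Of 15 macrophage and monocyte markers 7 rose, 0 fell and 8 did not pass. Among the 7 was MARCO, which passed the filter through treated arrays alone and had to be higher there. The sum of the 15 went from 24849 to 40339 in vehicle to 57578 to 97226 after PGF2alpha. LYZ was the brightest of the 15, with means of 17848 in vehicle and 35004 after PGF2alpha, and did not pass (adjusted p = 0.104). Neutrophil markers numbered 5 tested of 10 named, of which 4 rose. Among those too dim to be tested, MPO and ELANE had negative estimates (-0.275 and -0.611). CSF3R, S100A12 and MMP8 had positive ones (1.09, 0.463 and 0.164). LCN2 was the brightest of the 10 in vehicle, with a mean of 4165. The sums of all 10 were 3893 to 7039 in vehicle and 23928, 31531 and 12892 in PGF2alpha replicates 1, 2 and 3. The brighter SOD2 probe set was also lowest of the treated arrays in replicate 3, but replicates 1 and 2 stood in the other order. The dimmer SOD2 probe set was highest in replicate 3 (641, 654 and 825 in PGF2alpha replicates 1, 2 and 3). Endothelial markers gave 1 rise among 9 (sums 23806 to 27387 in vehicle, 23696 to 33493 after PGF2alpha) and fibroblast and pericyte markers 1 among 6 (55491 to 76574 and 72034 to 90217). The 3 red cell markers gave 0 calls by limma and 1 unadjusted p below 0.05, with sums of 1826 to 2127 and of 1002 to 2181. The part of cell composition in the values of the members was not tested.

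**Figure D5:**
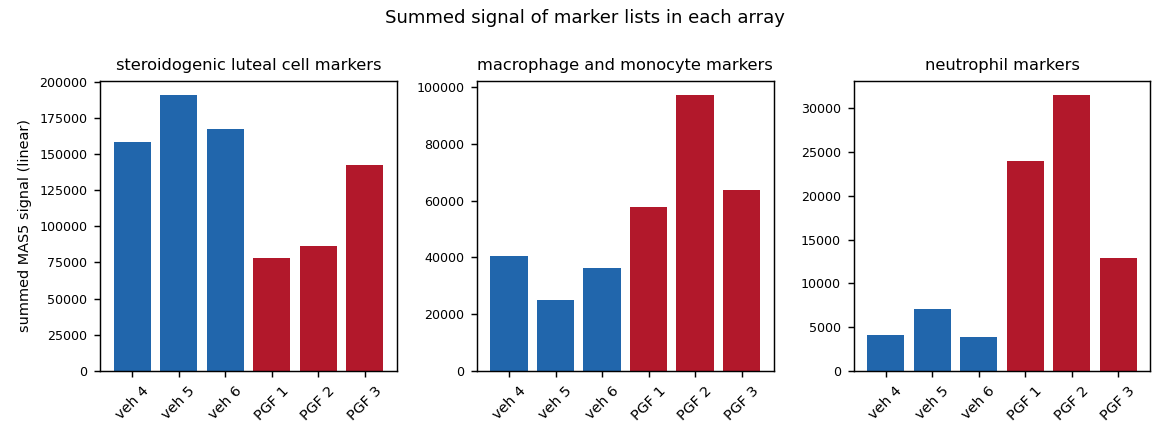
Summed MAS5 signal (linear, from 0) of the steroidogenic, macrophage and neutrophil marker lists in each array, vehicle in blue and PGF2alpha in red. Steroidogenic sums are lowest in PGF2alpha replicates 1 and 2, and macrophage and neutrophil sums are above every vehicle array in all 3 treated arrays.

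Partners of the same pathways gave fewer than 3 calls each, except for sources of superoxide. In that list 4 of 9 tested genes rose and 0 fell, with a median of 1.13. Over all genes tested, 3.81% were called higher and 2.32% lower, with a median of -0.0175. These are the background for this list and those that follow. CYBB, the catalytic subunit of the phagocyte NADPH oxidase, averaged 513 ± 187 in vehicle and 2147 ± 659.9 (SD, n = 3) after PGF2alpha, a rise of 2.0 in log2 units (adjusted p = 0.0106). Its cytosolic partners NCF4 and NCF1 rose by 1.26 (adjusted p = 0.0218) and 1.47 (adjusted p = 0.0409). NCF1 has near-identical pseudogenes and passed the filter through treated arrays alone. Monocytes and neutrophils express these 3 genes, and the sums of their markers given above were also higher in the treated arrays. The part of cell composition in the values of these 3 genes was not tested. In the same oxidase, CYBA stood at 0.06 (adjusted p = 0.869) and RAC2 at 1.13 (adjusted p = 0.0681), and neither passed. MAOA, the mitochondrial monoamine oxidase that releases hydrogen peroxide, averaged 1388 ± 88.3 in vehicle and 4833 ± 1537 (SD, n = 3) after PGF2alpha and rose by 1.72 (adjusted p = 0.00648).

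Of 16 thioredoxin and glutaredoxin partners 2 rose and 0 fell, with a median of 0.168. They were the glutaredoxin GLRX (1.41, adjusted p = 0.0400), which removes glutathione from protein thiols and whose call was lost on blocking on the run (adjusted p = 0.0504), and the methionine sulfoxide reductase MSRB3 (0.88, adjusted p = 0.0179). Among 10 genes of NADPH supply (median -0.0126), the isocitrate dehydrogenase IDH1 averaged 15233 ± 2094 in vehicle and 8387 ± 2009 (SD, n = 3) after PGF2alpha and fell by 0.88 (adjusted p = 0.0328), and the NAD kinase NADK rose by 0.93 (adjusted p = 0.0275). The 17 tested regulators and targets of NRF2, the transcription factor that drives many of these enzymes, had a median of 0.119. The iron-binding pirin gene PIR fell (-0.85, adjusted p = 0.0188), while NFE2L2, which encodes NRF2, stood at -0.10 (adjusted p = 0.837) and its inhibitor KEAP1 at 0.02 (adjusted p = 0.956). Of the 17, 11 had a positive estimate and 6 a negative one, and 7 had an unadjusted limma p below 0.05.

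Heme, iron and metal genes gave 1 rise and 1 fall among 10 (median 0.0482). BLVRB, the biliverdin and flavin reductase, fell by 0.94 (adjusted p = 0.0426) and the zinc and iron importer SLC39A14 rose by 0.84 (adjusted p = 0.0313). Among 12 other hydroperoxide and selenoprotein genes (median -0.0839), the matrix peroxidase PXDN rose by 0.75 (adjusted p = 0.0322) and the paraoxonase PON3 fell by 1.05 (adjusted p = 0.0329, and 0.0513 with arrays scaled to one median). Of 8 genes of glutathione turnover and transport 0 passed by limma, with 4 unadjusted p-values below 0.05 and a median of -0.127. The smallest p-values there were those of GGCT, the gamma-glutamylcyclotransferase (-0.70, adjusted p = 0.0745), and the glutathione conjugate exporter ABCC1 (0.68, adjusted p = 0.0789). Of the 13 genes called in these lists, MAOA alone kept its call without each array in turn (adjusted p from 0.000898 to 0.0373). CYBB lost it without PGF2alpha replicate 2 (adjusted p = 0.0541), and the other 11 lost it without PGF2alpha replicate 1, with adjusted p from 0.0556 to 0.132, without PGF2alpha replicate 2, from 0.0621 to 0.150, and without vehicle replicate 6, from 0.0577 to 0.150. Without vehicle replicate 4 or 5 the adjusted p of these 11 ran up to 0.104 and 0.111, so that some lost their call there. PXDN also lost its call without PGF2alpha replicate 3 (adjusted p = 0.0574). Without the filter on low values, GLRX, IDH1, BLVRB, SLC39A14, NCF1, PXDN and PON3 lost their calls (adjusted p from 0.0552 to 0.0813). Without a variance trend the same genes and MSRB3 and NADK lost theirs (adjusted p from 0.0523 to 0.0784).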

How the data were processed

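Gene expression was measured on 6 one-colour Affymetrix arrays. Per the labels, the authors deposited linear signal intensities per probe set from Microarray Suite 5.0 (MAS5). Their trimmed mean (2% off each end) was equal on all arrays, so they were used without further scaling. Gene symbols came from an old platform annotation, and 1 probe set with several symbols of these families was left out. No genome or sequence was used. Values were taken as log2(signal + 40), which understates changes of dim probe sets. A probe set was tested if it reached its array's median in at least 3 of 6 arrays. Groups were compared with limma 3.58.1 in R 4.3.3 (variance trend, two-sided, Benjamini-Hochberg over 26944 probe sets, threshold 0.05). The code was tested on simulated data. The rule named every called member, 28 core genes of which 18 had a probe set, and the called genes of each list. NFE2L2 and KEAP1 were chosen after their values were seen. Members and lists were chosen with earlier results of these data known. Alternatives covered scaling, pseudocount, filter, variance estimation, array weights, run (recorded hybridisation time), cross-hybridising probe sets and each array left out. Detection calls were not used, and 3 arrays a group limit the precision.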

Additional observations from a re-analysis of the deposited data

How the results depend on the processing

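Over 17 alternatives, the 35 member readings gave 585 values, of which 508 kept their direction and side of the threshold, 55 lost a call, 10 gained one and 12 changed sign, all of the latter in genes without a call. Lower member probe sets past the threshold numbered 0 without the filter on low values and 0 without a variance trend (17 and 14 at an unadjusted p below 0.05 in limma), where 826 and 669 of all probe sets passed. Higher ones numbered 0 with the filter at the 70th percentile and 0 without cross-hybridising probe sets (2 and 2 unadjusted), both of which drop the called GSTA1 probe set, and 3 with array weights. Leaving out each array gave 0 to 2 higher, 0 to 8 lower and 223 to 1903 probe sets in all, with the extremes for all at PGF2alpha replicates 2 and 3. The sign changes were HMOX2 at -0.028 with array weights and, on leaving out single arrays, HMOX2 (-0.0495 to 0.0455), GSTM3 (-0.454 to 0.133), GPX7 (-0.567 to 0.0211), GPX6 (-0.531 to 0.0412), GSTM4 (-0.014 to 0.25) and MGST2 (-0.152 to 0.324). The cause of the other changes was not tested. No paired analysis was possible because the groups share no replicate number. The count of negative estimates ran from 44 to 48 of 60 over the alternatives that tested 60 member probe sets.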
